A study of Mus musculus with 12 samples.

Results

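DNA repair genes were followed in BMDMs, macrophages grown from mouse bone marrow, after treatment with a PARP inhibitor or with MNA. The set held 41 genes, taken by symbol from a written list that covers repair of DNA breaks, base excision repair and neighbouring pathways. Each of the 41 had a mean of 10 or more counts over the 12 libraries, and each passed the filter on low counts, so that 41 of the 12849 tested genes, of 35275 listed, are described here. They comprised 9 genes of homologous recombination, 10 of break sensing and checkpoint signaling, 10 of base excision and single-strand break repair, 5 of end joining, 3 of the Fanconi anaemia pathway, 1 of mismatch repair and 3 of nucleotide excision repair.

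A cell mends a broken DNA duplex by homologous recombination, which copies the intact sister chromatid and therefore works mainly in cells that have replicated their DNA, or by end joining, which ligates the ends directly at any stage of the cell cycle. Damaged or missing bases and single-strand nicks go through base excision repair, where PARP1 binds the nick and makes the poly(ADP-ribose) that brings in Xrcc1 and its partners. PARP inhibitors block that step and trap PARP1 on DNA, and cells without homologous recombination tolerate this poorly. Macrophages that have left the cell cycle express recombination and replication-linked repair genes weakly.

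Wild-type bone marrow from donors aged 6 to 10 weeks was cultured for 6 days in medium with the macrophage growth factor M-CSF and the cytokine IL-4, each at 20 ng/ml, and with IL-10 at 10 ng/ml, which give the M2 phenotype. For those same 6 days each culture also received DMSO, the solvent control, olaparib, an inhibitor of PARP1 and PARP2, or MNA, the methylated nicotinamide that the study used as a derivative of NAD. The doses of these cultures are not given in the sources used here. Each of the 3 groups held 4 libraries, numbered 1 to 4 and drawn from 4 donor mice, and the comparisons ask how transcripts of repair genes stood with olaparib and with MNA relative to DMSO, and with olaparib relative to MNA. Both treatments were set against the same 4 DMSO libraries, so that values against DMSO are not independent of each other.

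Libraries held 21146291 to 31446849 counts with DMSO, 24947905 to 28766984 with olaparib and 24076240 to 27501216 with MNA. MNA replicate 2 stood with the 4 DMSO libraries and apart from the other 3 MNA libraries on the first principal component (49.8% of the variance), while on the second (24.9%) it lay just past the DMSO libraries, beside MNA replicates 3 and 4. It was kept in every main value, and each result that rests on it is also given without it. Without this library the common dispersion, the spread that edgeR shares between the 3 groups, was 0.0123, compared with 0.0333 with it, so that it also bears on olaparib against DMSO. Of the macrophage markers, 8 of 8 were tested and their summed level was 3904 to 5050 CPM (reads of a gene relative to the TMM-scaled total of its library) with DMSO, 8498 to 10219 with olaparib and 3628 to 7485 with MNA. With olaparib 4 of the 8 were up-regulated and 1, Cd68, down-regulated (50% and 12.5%, beside 14.3% and 12.8% of all tested genes). The 6 markers of the IL-4 response summed to 33179 to 53751 CPM with DMSO, 18873 to 30447 with olaparib, 1135 to 1612 in MNA replicates 1, 3 and 4 and 32136 in MNA replicate 2. Of these 6, 1 was down-regulated with olaparib, Ccl24 (16.7%, beside 12.8%), and 2 had a positive log2 fold change. With MNA 2 were down-regulated (33.3%, beside 12.3%). Without MNA replicate 2, 3 were down-regulated with olaparib (50%, beside 21.2%) and 6 with MNA (100%, beside 26.9%). Summed levels of the 7 neutrophil markers, of which 3 passed the filter on low counts, reached 8.86 CPM with DMSO, 3.54 with olaparib and 56.4 with MNA, those of the 4 erythroid markers, of which none passed, 3.70, 0.21 and 54.4, and those of the 6 T and NK cell markers 4.09, 18.9 and 5.63. The high neutrophil and erythroid sums with MNA came from replicate 4, and the other 3 MNA libraries had at most 8.76 and 0.0823 CPM. The 5 stem and progenitor markers summed to at most 11.2 CPM, the 6 dendritic cell markers to 26.7, the 5 B cell markers to 6.83 and the 5 stromal markers to 7.80. The 5 mast cell and basophil markers summed to at most 1.12 CPM, with Mcpt4 at 3 reads or fewer in every library. The part of these cells in the results below was not tested, and in bulk RNA fewer cells of one type and less RNA per cell cannot be told apart.

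In DMSO-treated BMDMs the repair genes spanned a 115-fold range of level per length, with a median of 1.91 CPM per kb of exon. Nbn, a subunit of the MRN complex that binds broken ends, was the highest at 11.4 CPM per kb (10.9 to 12 over the 4 libraries), and did not overlap with Rad50, another MRN subunit, at 6.47 (6.33 to 6.57). The endonuclease subunit Ercc1 followed at 5.85 (5.74 to 5.94), below Rad50 in every library. Apex1, the AP endonuclease of base excision repair, stood at 5.52 CPM per kb with a range of 4.04 to 7.36 that covers the ranges of both Rad50 and Ercc1. At the low end were genes used around DNA replication. Fanci had 0.0991 CPM per kb (0.0348 to 0.170), Chek1 0.106 (0.0578 to 0.171), Fancd2 0.154 (0.101 to 0.195), Brca2 0.183 (0.141 to 0.221) and Fanca 0.197 (0.142 to 0.271), and neighbours in this order overlapped. The lowest members were sparsely counted, with 6 to 59 reads per library for Fanci and 8 to 44 for Chek1.

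Olaparib-treated BMDMs had 5 up-regulated repair genes (Chek2, Brca1, Palb2, Fancd2 and Polb) and 4 down-regulated ones (Nbn, Rif1, Atm and Lig3) against DMSO at an adjusted p under 0.05 from edgeR. These are 12.2% and 9.76% of the 41, beside 14.3% and 12.8% of all tested genes. With MNA, 5 were up-regulated (Xrcc4, Msh6, Xrcc6, Polb and Xpc) and 3 down-regulated (Nbn, Brca1 and Xrcc1), or 12.2% and 7.32% beside 16.3% and 12.3% of all tested genes. Olaparib exceeded MNA for 3 (Chek2, Brca1 and Xrcc1) and lay below it for 4 (Xrcc6, Msh6, Xrcc4 and Rad50), or 7.32% and 9.76% beside 10.9% and 10.9%. None of these shares lay above its background. The median log2 fold change over the 41 was −0.01 with olaparib, 0.05 with MNA and −0.02 between them, and that over all tested genes was 0.004, 0.000 and −0.013. In all, 15 members were called in at least 1 comparison and 26 in none. Of the 3 members called against DMSO by both treatments, Nbn and Polb moved in the same direction and Brca1 in opposite directions.

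**Figure D1:**
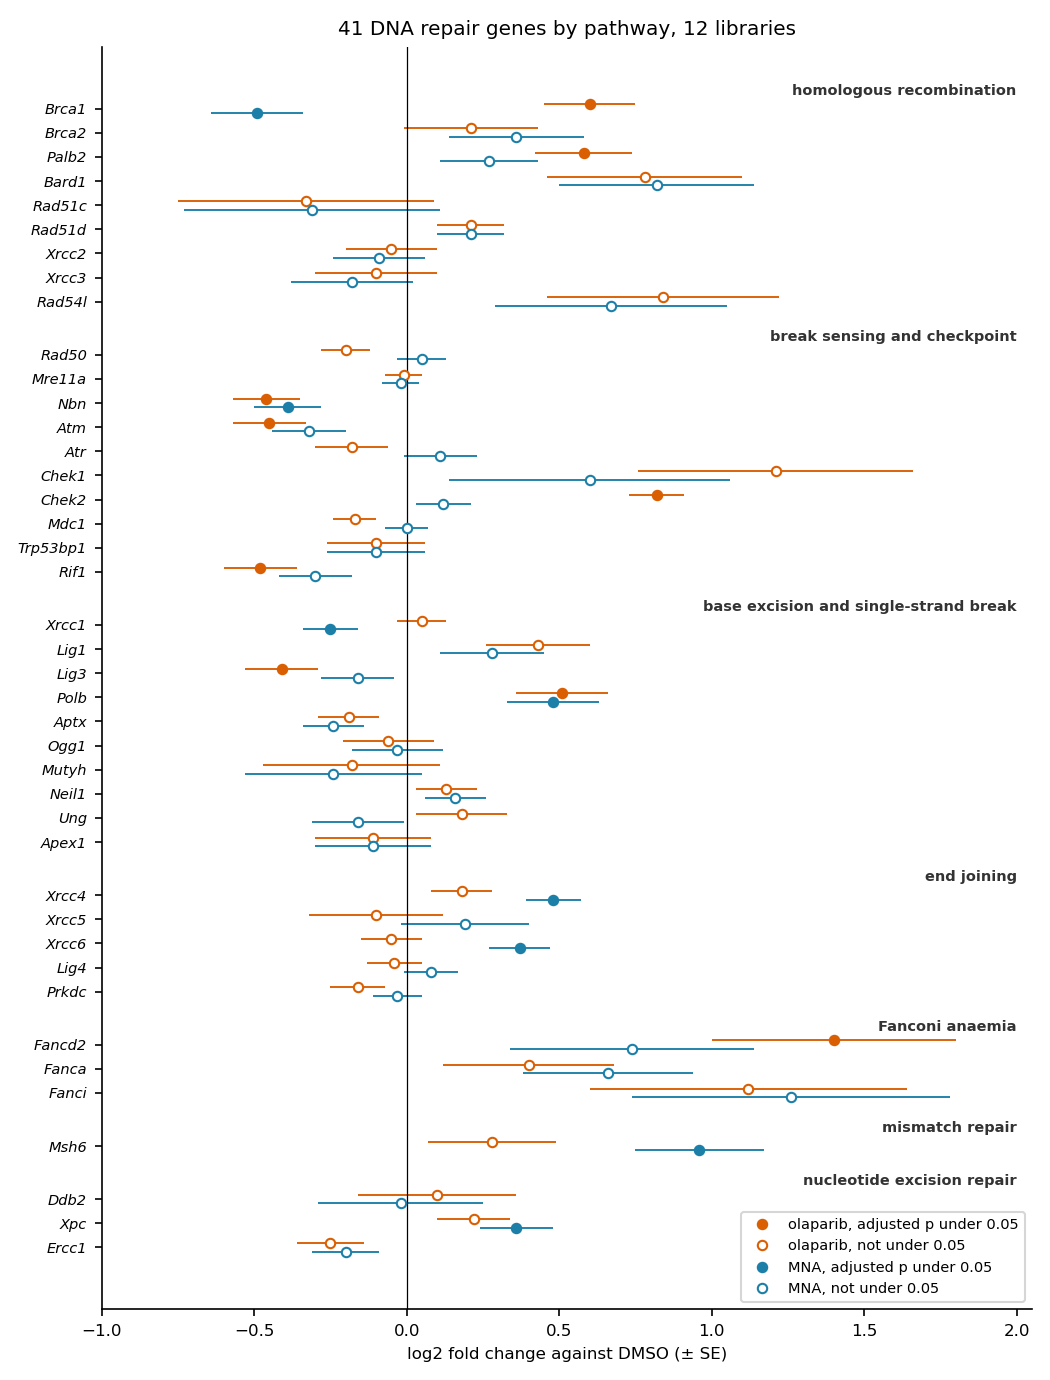
Each row is 1 of the 41 repair genes, grouped by pathway, and the horizontal axis is the log2 fold change against DMSO with its standard error, for olaparib (orange) and MNA (blue). Filled circles mark an adjusted p under 0.05 from edgeR, of which there are 9 for olaparib and 8 for MNA. Chek2 stands at 0.82 with olaparib and 0.12 with MNA, Brca1 lies on opposite sides of 0, and Msh6, Xrcc4 and Xrcc6 lie further right with MNA than with olaparib.

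Without MNA replicate 2, olaparib had 11 up-regulated and 8 down-regulated members (26.8% and 19.5%, beside 22.5% and 21.2% of all tested genes), MNA had 12 and 8 (29.3% and 19.5%, beside 27.2% and 26.9%), and the direct comparison gave 4 and 6 (9.76% and 14.6%, beside 21.5% and 20.7%). No member called with the 12 libraries lost its call in this fit. The libraries of olaparib and of DMSO were apart in 7 members that were higher with olaparib (the 5 called, Lig1 and Msh6) and 7 that were lower (the 4 called, Rad50, Mdc1 and Ercc1), beside 20.7% and 20.3% of all tested genes. For MNA against DMSO this held for 2 higher members, Xrcc4 and Xrcc6, and 0 lower ones, beside 6.24% and 6.12%, and without MNA replicate 2 for 11 and 7, beside 27.2% and 27.2%. Olaparib and MNA did not overlap in 3 higher and 3 lower members, beside 11.5% and 9.69% (4 and 5 without MNA replicate 2, beside 23.5% and 22.8%). In the 18 members where the other 3 MNA libraries did not overlap DMSO, MNA replicate 2 was within the DMSO range in 12 and beyond DMSO on the far side in 4 (Rad50, Lig3, Fancd2 and Ercc1). It fell between the 2 sets for Xrcc4, and with the other MNA libraries for Xrcc6 alone.

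**Figure D2:**
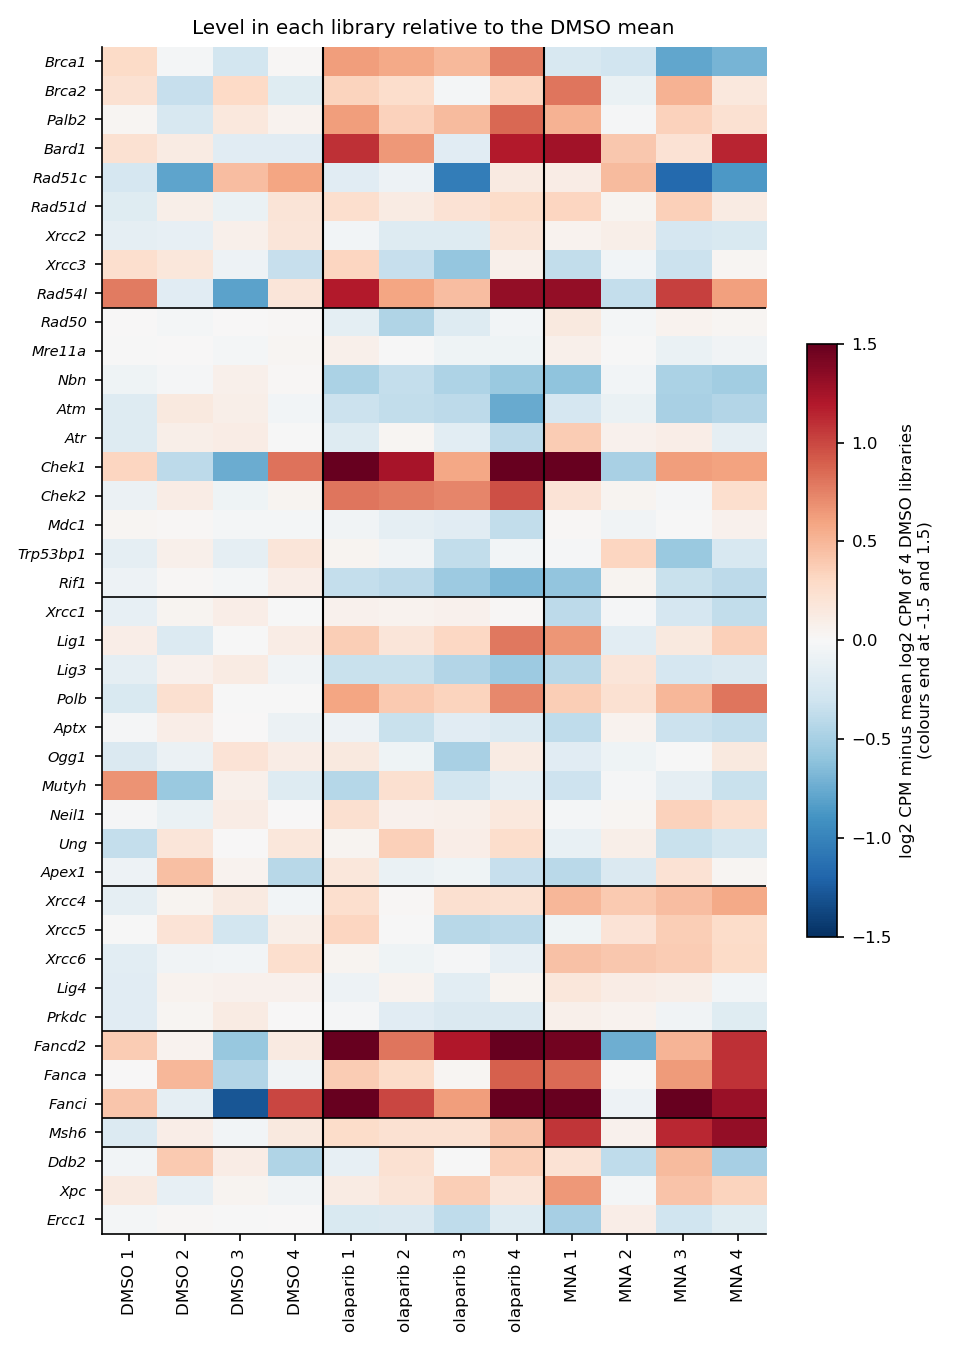
Rows are the 41 repair genes in pathway order and columns the 12 libraries, and the colour is log2 CPM minus the mean log2 CPM of the 4 DMSO libraries, with colours ending at −1.5 and 1.5. Chek2, Brca1, Palb2 and Fancd2 are red in the 4 olaparib columns, Nbn, Atm, Rif1 and Lig3 are blue there, and the column of MNA replicate 2 is near 0 for Nbn, Rif1 and Msh6, where the other 3 MNA columns are not.

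Promoter sequence is shown for members that carry an E2F-like motif, because E2F factors are known to control genes of DNA replication and repair through such elements. The letters TTTCGCGC, TTTGGCGC and TTTCCCGC were searched on both strands from 250 bases before to 50 after each start in RefSeq's promoter table (GRCm38.p6), which held 31 of the 41 members. A motif was present for 8 of these (25.8%), compared with 573 of the 27025 genes in that table (2.12%), and per promoter in 9 of 38 (23.7%) against 606 of 32851 (1.84%). These matches describe letters in a window and not binding. In order of p with olaparib, the first 5 were Chek2, Mdc1, Lig1, Bard1 and Msh6. The lines below give the stretch before the start that no annotated exon covers, 5′ to 3′ on the strand of the gene, with the motif in capitals.
Chek2: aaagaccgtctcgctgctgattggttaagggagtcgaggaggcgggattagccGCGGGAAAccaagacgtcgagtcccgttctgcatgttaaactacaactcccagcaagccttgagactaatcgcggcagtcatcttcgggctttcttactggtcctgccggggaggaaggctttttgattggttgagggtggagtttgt
Mdc1: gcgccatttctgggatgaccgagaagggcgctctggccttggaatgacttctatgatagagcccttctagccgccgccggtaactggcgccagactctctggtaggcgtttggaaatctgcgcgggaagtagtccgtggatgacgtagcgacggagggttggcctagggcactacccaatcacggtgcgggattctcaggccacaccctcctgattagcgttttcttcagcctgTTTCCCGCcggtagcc
Bard1: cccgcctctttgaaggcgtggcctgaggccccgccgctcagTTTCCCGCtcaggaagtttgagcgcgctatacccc
The Chek2 stretch is chr5:110839778-110839978 (+ strand) with TTTCCCGC on the opposite strand at −152 to −145 from the start. That of Mdc1 is chr17:35841248-35841497 (+ strand) with the motif at −16 to −9, and that of Bard1 is chr1:71103147-71103222 (− strand) with it at −209 to −202. In Lig1, which has further listed starts without a motif, it began 27 bases after a start. In Msh6 it began 16 bases after the start. Both lie within annotated exons, and neither is printed. Of these 5, Chek2 was called with olaparib, and the other 4 had adjusted p from 0.0782 to 0.327. The remaining members with a motif, Brca2, Rad51c and Xrcc6, had adjusted p of 0.496, 0.582 and 0.727 with olaparib. Brca1, Palb2, Atm and Lig3 were also called with olaparib, and their listed promoters held no motif. Fancd2, Polb, Nbn and Rif1, the other members called with olaparib, were not in the promoter table.

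Among the genes that sense breaks and halt the cell cycle, Chek2 was up-regulated and Nbn, Atm and Rif1 were down-regulated with olaparib. Chek2 (ENSMUSG00000029521, chromosome 5, 110839979 to 110874145), the checkpoint kinase that ATM activates and that phosphorylates p53, stood at 11.5, 13.1, 11.7 and 12.6 CPM in DMSO replicates 1 to 4, at 21.3, 20.8, 20.2 and 23.9 with olaparib and at 14.0, 12.5, 12 and 14.5 with MNA. Every olaparib library lay above all 8 others, while MNA and DMSO overlapped. With olaparib the log2 fold change was 0.82 ± 0.09 (standard error, adjusted p = 1.25e-04 from edgeR), and against MNA it was 0.70 ± 0.09 (adjusted p = 2.80e-04). With MNA it was 0.12 ± 0.09 (adjusted p = 0.314). Both calls of Chek2 held in each of the 21 alternatives, with adjusted p of at most 9.25e-04 and 0.00313.

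Nbn (ENSMUSG00000028224, chromosome 4, 15957925 to 15992589), which recruits ATM to broken ends, had 27.7, 28.6, 30.5 and 29.2 CPM with DMSO, 20.8, 22.5, 21 and 19.7 with olaparib, and 19.1, 28.0, 20.8 and 20.2 with MNA. The olaparib libraries lay below all DMSO libraries, as did MNA replicates 1, 3 and 4, and MNA replicate 2 stood among the DMSO libraries. Its log2 fold change was −0.46 ± 0.11 with olaparib (adjusted p = 0.00934) and −0.39 ± 0.11 with MNA (adjusted p = 0.0239), and −0.53 ± 0.07 with MNA without replicate 2 (adjusted p = 1.93e-05). The MNA call did not hold with 1 of DMSO replicates 2 to 4 or of MNA replicates 1, 3 and 4 left out, at adjusted p of 0.0531 to 0.0759. Olaparib and MNA differed by −0.07 ± 0.11 (adjusted p = 0.691).

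Atm (ENSMUSG00000034218, chromosome 9, 53439149 to 53536740), the kinase at the head of the break response, had 28.3, 35.7, 34.4 and 31.4 CPM with DMSO, 25.9, 25.0, 24.7 and 19.2 with olaparib, and 27.1, 30.2, 23.1 and 23.9 with MNA. All 4 olaparib libraries were below the DMSO range, and 3 of the 4 MNA libraries were. The log2 fold change with olaparib was −0.45 ± 0.12 (adjusted p = 0.0150). With MNA it was −0.32 ± 0.12 (adjusted p = 0.0579), which passed the threshold without DMSO replicate 1 (0.0487), olaparib replicate 4 (0.0443) or MNA replicate 2 (0.00718).

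Rif1 (ENSMUSG00000036202, chromosome 2, 52072832 to 52122383), which acts with 53BP1 to shield ends from resection, had 19.0, 20.2, 19.6 and 21.5 CPM with DMSO, 15.7, 15.3, 13.8 and 12.7 with olaparib, and 13.3, 20.7, 15.9 and 15.3 with MNA. As for Nbn, the olaparib libraries and MNA replicates 1, 3 and 4 lay below DMSO and MNA replicate 2 lay within it. Rif1 fell by 0.48 on the log2 scale with olaparib (standard error 0.12, adjusted p = 0.0145), and its MNA value was −0.30 ± 0.12 (adjusted p = 0.0791, and 0.00134 without MNA replicate 2). The olaparib calls of Nbn, Atm and Rif1 held at 0.05 in each of the 21 alternatives, with adjusted p of at most 0.0305, 0.0473 and 0.0466.

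**Figure D3:**
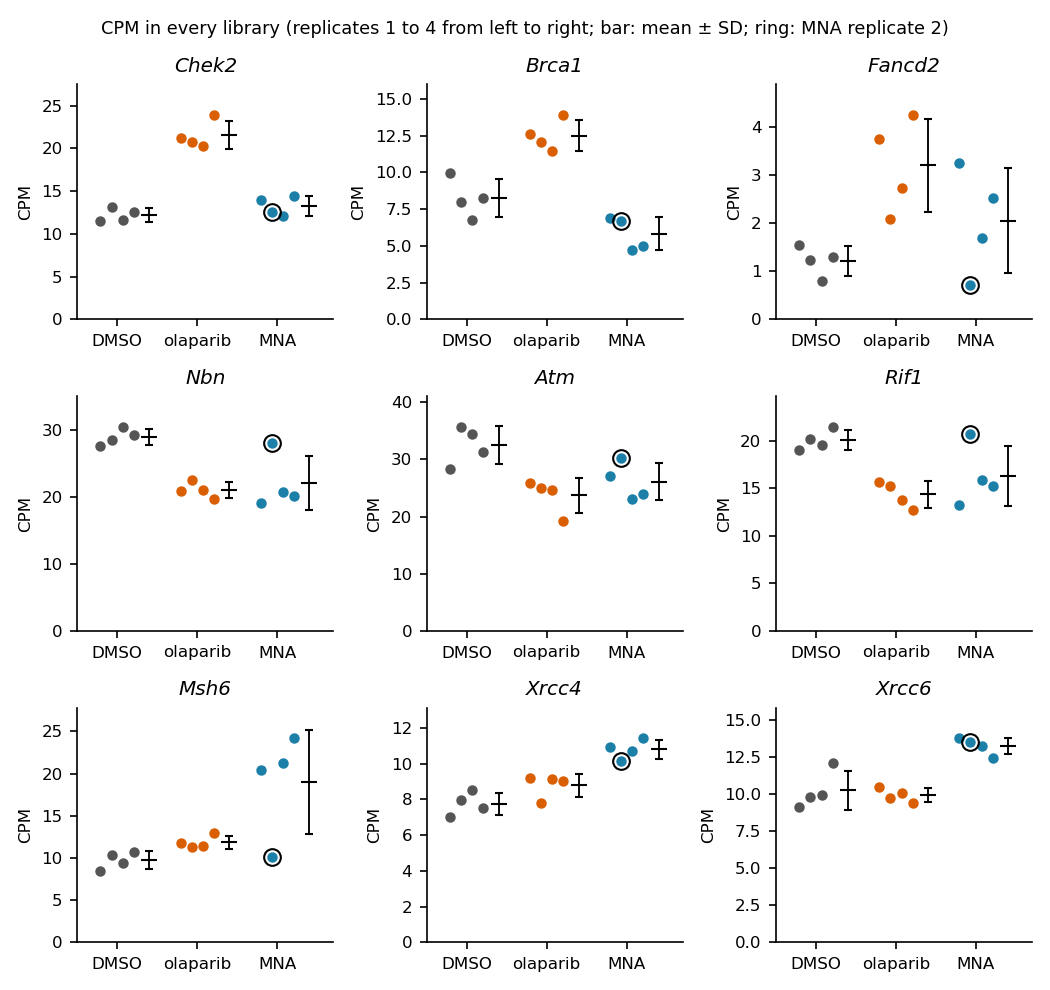
The 9 panels give CPM (vertical axis, from 0) in each of the 12 libraries for 9 repair genes, with replicates 1 to 4 from left to right within a group, the mean ± SD of the 4 libraries beside them, and a ring around MNA replicate 2. Olaparib stands above all other libraries for Chek2 (20.2 to 23.9 CPM) and Brca1 (11.4 to 13.9), and the ringed library lies at the DMSO level for Nbn, Atm, Rif1 and Msh6 and with the other MNA libraries for Xrcc6.

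Of the other MRN and mediator genes, Rad50 and Mdc1 were lower in every olaparib library than in any DMSO library without passing the test. Rad50 (ENSMUSG00000020380, chromosome 11, 53649519 to 53707319), the ATPase of the MRN complex, had 34.9, 34, 34.9 and 35.3 CPM with DMSO, 31.5, 25.4, 30.4 and 33.9 with olaparib, and 38.5, 34, 36.0 and 35.5 with MNA. Its log2 fold change against DMSO was −0.20 ± 0.08 with olaparib (adjusted p = 0.0837) and 0.05 ± 0.08 with MNA. Olaparib was lower than MNA by a log2 value of −0.25 ± 0.08 (adjusted p = 0.0454), a call lost without any DMSO library, without olaparib replicate 1, 2 or 3, or without MNA replicate 1, 3 or 4, at adjusted p of 0.0585 to 0.105. Mdc1 (ENSMUSG00000061607, chromosome 17, 35841515 to 35859670), the adaptor that binds phosphorylated H2AX and whose promoter is printed above, had 29.3, 29.1, 28.2 and 28.0 CPM with DMSO, 27.7, 26.2, 25.4 and 22.3 with olaparib, and 28.9, 27.6, 28.5 and 29.9 with MNA. Its value with olaparib was −0.17 ± 0.07 (adjusted p = 0.0782). Without MNA replicate 2 both Rad50 and Mdc1 passed the test with olaparib (adjusted p = 0.0450 and 0.0467), and Mdc1 did so without olaparib replicate 1 as well (0.0471). For olaparib against MNA, Mdc1 was at −0.18 ± 0.07 (adjusted p = 0.0831), and at −0.20 ± 0.07 without MNA replicate 2 (adjusted p = 0.0407).

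Chek1 (ENSMUSG00000032113, chromosome 9, 36708482 to 36727065), the kinase that answers stalled replication forks, was near the limit of what this depth can show, with 0.563, 0.344, 0.268 and 0.794 CPM with DMSO, 1.27, 1.06, 0.673 and 1.53 with olaparib, and 1.32, 0.322, 0.695 and 0.684 with MNA. Olaparib replicate 3 overlapped the DMSO libraries. The log2 fold change with olaparib was 1.21 ± 0.45 (adjusted p = 0.0618), and with same-numbered libraries blocked the adjusted p was 0.0304. It was also under the threshold without DMSO replicate 4 (0.0468), MNA replicate 1 (0.0443) or MNA replicate 2 (0.0217). Mre11a, the MRN nuclease, had a mean of 29.4 ± 0.496 CPM with DMSO, 29.1 ± 1.39 with olaparib and 29.0 ± 1.50 with MNA (SD, n = 4). Its fold changes were −0.01 ± 0.06 and −0.02 ± 0.06 on the log2 scale, unlike those of its partner Nbn. Atr, which heads the replication stress response, and Trp53bp1, the gene of 53BP1, were not called, with log2 values of −0.18 ± 0.12 and −0.10 ± 0.16 with olaparib and 0.11 ± 0.12 and −0.10 ± 0.16 with MNA.

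Targets of p53, to which Chek2 signals, were measured beside these genes with a list of 22 that holds no member. With olaparib 13 were up-regulated and 1 down-regulated (median log2 fold change 0.49, compared with 0.004 for all tested genes), among them Phlda3 (1.64 ± 0.12, adjusted p = 1.25e-05), Trp53inp1 (1.13 ± 0.12, adjusted p = 9.61e-05) and Zmat3 (1.12 ± 0.09, adjusted p = 2.10e-05). With MNA 3 rose, including Pmaip1 (0.84 ± 0.21, adjusted p = 0.0192) and Tnfrsf10b (0.66 ± 0.17, adjusted p = 0.0202), and 5 fell, including Perp (−2.25 ± 0.59, adjusted p = 0.0215), with a median of −0.08. Against MNA, 9 were higher with olaparib. As shares these are 59.1% and 4.55% with olaparib, beside 14.3% and 12.8% of all tested genes. They are 13.6% and 22.7% with MNA, beside 16.3% and 12.3%, and 40.9% between the treatments, beside 10.9%. With MNA replicate 2 left out, 14 were up and 4 down with olaparib (63.6% and 18.2%, beside 22.5% and 21.2%). With MNA 6 and 9 were (27.3% and 40.9%, beside 27.2% and 26.9%), and 13 were higher with olaparib than with MNA (59.1%, beside 21.5%). The mean log2 CPM of the list was 4.85 to 4.97 with DMSO, 5.36 to 5.45 with olaparib, 4.52 to 4.66 in MNA replicates 1, 3 and 4 and 4.91 in MNA replicate 2. Whether this list and Chek2 are linked in these cells was not tested.

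Within homologous recombination, Brca1 and Palb2 were up-regulated with olaparib, and Brca1 was down-regulated with MNA. Brca1 (ENSMUSG00000017146, chromosome 11, 101488764 to 101551955), the ubiquitin ligase subunit that promotes end resection, had 9.94, 8.02, 6.77 and 8.25 CPM with DMSO, 12.6, 12.1, 11.4 and 13.9 with olaparib, and 6.91, 6.70, 4.75 and 5.03 with MNA. Every olaparib library lay above all DMSO and MNA libraries, and 3 of the 4 MNA libraries lay below all DMSO libraries. Against DMSO the log2 fold change was 0.60 ± 0.15 with olaparib (adjusted p = 0.0125) and −0.49 ± 0.15 with MNA (adjusted p = 0.0336), and olaparib exceeded MNA by 1.10 ± 0.15 (adjusted p = 5.06e-04). The olaparib call and that between the treatments held in each of the 21 alternatives. The MNA call was missed with 1 of DMSO replicates 1, 2 and 4 or of MNA replicates 1, 3 and 4 removed, at adjusted p of 0.0512 to 0.106, and was 0.00684 without MNA replicate 2.

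Palb2 (ENSMUSG00000044702, chromosome 7, 122107262 to 122132985), which joins BRCA1 to BRCA2, had 3.70, 3.06, 4.02 and 3.75 CPM with DMSO, 5.58, 4.60, 5.01 and 6.55 with olaparib, and 5.18, 3.58, 4.59 and 4.22 with MNA. The olaparib libraries did not overlap DMSO, and MNA overlapped through replicate 2. With olaparib the log2 fold change was 0.58 ± 0.16 (adjusted p = 0.0192), which missed the threshold with DMSO replicate 2 (0.0598) or olaparib replicate 4 (0.0647) removed. With MNA it was 0.27 ± 0.16 (adjusted p = 0.198).

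Bard1 and Rad54l were higher on average with both treatments and overlapped DMSO in both. Bard1 (ENSMUSG00000026196, chromosome 1, 71027498 to 71103146), the partner of BRCA1 and one of the promoters printed above, had 1.55, 1.45, 1.17 and 1.17 CPM with DMSO, 2.83, 2.08, 1.18 and 3.03 with olaparib, and 3.17, 1.75, 1.54 and 2.94 with MNA. Olaparib replicate 3 stood at the DMSO level. Its log2 values were 0.78 ± 0.32 (adjusted p = 0.0849) and 0.82 ± 0.32 (adjusted p = 0.0685), and both passed without olaparib replicate 3 (0.0339 and 0.0476) or MNA replicate 2 (0.0497 and 0.0251). Rad54l (ENSMUSG00000028702, chromosome 4, 116094264 to 116123690), a motor protein of strand invasion, had 4.5, 2.34, 1.51 and 2.98 CPM with DMSO, 6.01, 3.97, 3.62 and 6.55 with olaparib, and 6.54, 2.04, 5.33 and 4.02 with MNA. Its log2 values were 0.84 ± 0.38 (adjusted p = 0.113) and 0.67 ± 0.38 (adjusted p = 0.186). Without MNA replicate 2 the adjusted p was 0.0293 and 0.0228, and with same-numbered libraries blocked it was 0.0498 for olaparib.

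Rad51d (ENSMUSG00000018841, chromosome 11, 82876434 to 82890614), which acts in strand exchange, had 10.4, 12.5, 11.0 and 13.5 CPM with DMSO, 14.0, 12.8, 13.7 and 14.2 with olaparib, and 14.8, 12.1, 15.1 and 12.9 with MNA. The groups overlapped, and its log2 value was 0.21 ± 0.11 with each treatment (adjusted p = 0.160 with olaparib and 0.141 with MNA, the latter 0.0448 without MNA replicate 2). Rad51c, Xrcc2 and Xrcc3, which act at the same step, had values of −0.33 ± 0.42, −0.05 ± 0.15 and −0.10 ± 0.20 with olaparib, and −0.31 ± 0.42, −0.09 ± 0.15 and −0.18 ± 0.20 with MNA. Brca2, a mediator of strand exchange, had 0.21 ± 0.22 and 0.36 ± 0.22. None of these 4 was called in any of the 3 comparisons.

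In the Fanconi anaemia pathway, which unhooks crosslinked strands at replication forks, Fancd2 was up-regulated with olaparib. Fancd2 (ENSMUSG00000034023, chromosome 6, 113531682 to 113597017), the subunit that is ubiquitinated when the pathway is active, had 1.55, 1.24, 0.804 and 1.30 CPM with DMSO, 3.74, 2.08, 2.73 and 4.25 with olaparib, and 3.25, 0.716, 1.70 and 2.53 with MNA. Olaparib libraries were above all DMSO libraries, and MNA replicate 2 was below them. Fancd2 had the largest log2 fold change of the 41 members with olaparib, 1.40 ± 0.40 (adjusted p = 0.0231), and it missed the threshold with 1 of DMSO replicates 2 to 4 or of olaparib replicates 1 and 4 removed, at adjusted p of 0.0520 to 0.0711. With MNA the value was 0.74 ± 0.40 (adjusted p = 0.166), and 1.03 ± 0.31 without replicate 2 (adjusted p = 0.0112).

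Fanci (ENSMUSG00000039187, chromosome 7, 79391929 to 79450264), the partner of FANCD2, had 0.656, 0.447, 0.201 and 0.984 CPM with DMSO, 1.38, 0.982, 0.757 and 1.85 with olaparib, and 2.43, 0.466, 1.43 and 1.21 with MNA. Fanca (ENSMUSG00000032815, chromosome 8, 123268300 to 123318576), a subunit of the core ligase complex, had 1.69, 2.37, 1.24 and 1.62 CPM with DMSO, 2.19, 2.04, 1.72 and 3.14 with olaparib, and 3.04, 1.68, 2.62 and 3.58 with MNA. For both genes MNA replicates 1, 3 and 4 were above all DMSO libraries and MNA replicate 2 was among them, and olaparib overlapped DMSO. The log2 values of Fanci were 1.12 ± 0.52 with olaparib (adjusted p = 0.128) and 1.26 ± 0.52 with MNA (adjusted p = 0.0842), and those of Fanca 0.40 ± 0.28 (adjusted p = 0.305) and 0.66 ± 0.28 (adjusted p = 0.0887). Without MNA replicate 2, Fanci passed with both (0.0474 and 0.00953) and Fanca with MNA (0.0134).

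Proliferation genes were measured beside these pathways. Of 34 genes that include no member, 15 were up-regulated and 1 down-regulated with olaparib (median log2 fold change 0.91, and 25 and 2 without MNA replicate 2), among them Plk1 (1.80 ± 0.40, adjusted p = 0.00806) and Ccnb2 (2.58 ± 0.62, adjusted p = 0.0115), while the licensing factor Cdt1 fell (−0.66 ± 0.16, adjusted p = 0.00987). With MNA 6 were up-regulated and 1 down-regulated (median 0.53), and 19 and 3 without MNA replicate 2 (median 0.72), with Cenpa (1.67 ± 0.36, adjusted p = 0.0147), E2f1 (0.69 ± 0.19, adjusted p = 0.0231) and Cdk1 (1.05 ± 0.31, adjusted p = 0.0301) leading. As shares, 44.1% were up-regulated and 2.94% down-regulated with olaparib, beside 14.3% and 12.8% of all tested genes. With MNA 17.6% and 2.94% were, beside 16.3% and 12.3%, so the up-regulated share was near that of all tested genes. Without MNA replicate 2 they were 73.5% and 5.88% with olaparib (beside 22.5% and 21.2%) and 55.9% and 8.82% with MNA (beside 27.2% and 26.9%). The mean log2 CPM of the proliferation list was 2.09 to 2.91 with DMSO, 3.12 to 3.86 with olaparib, 3.12 to 3.51 in MNA replicates 1, 3 and 4 and 2.30 in MNA replicate 2. That of the 3 Fanconi members was −0.55 to 0.43 with DMSO, 0.69 to 1.58 with olaparib, 0.95 to 1.57 in MNA replicates 1, 3 and 4 and −0.14 in MNA replicate 2. The 9 homologous recombination members gave 1.68 to 1.94 with DMSO, 1.78 to 2.37 with olaparib and 1.81 to 2.22 with MNA, and these groups overlapped. Brca1 was at 6.91, 6.70, 4.75 and 5.03 CPM in MNA replicates 1 to 4, where the proliferation list was at 3.51, 2.30, 3.12 and 3.33. The part of dividing cells in the values of Brca1, Fancd2, Fanci, Rad54l, Bard1, Chek1 and Lig1 was not tested.

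**Figure D4:**
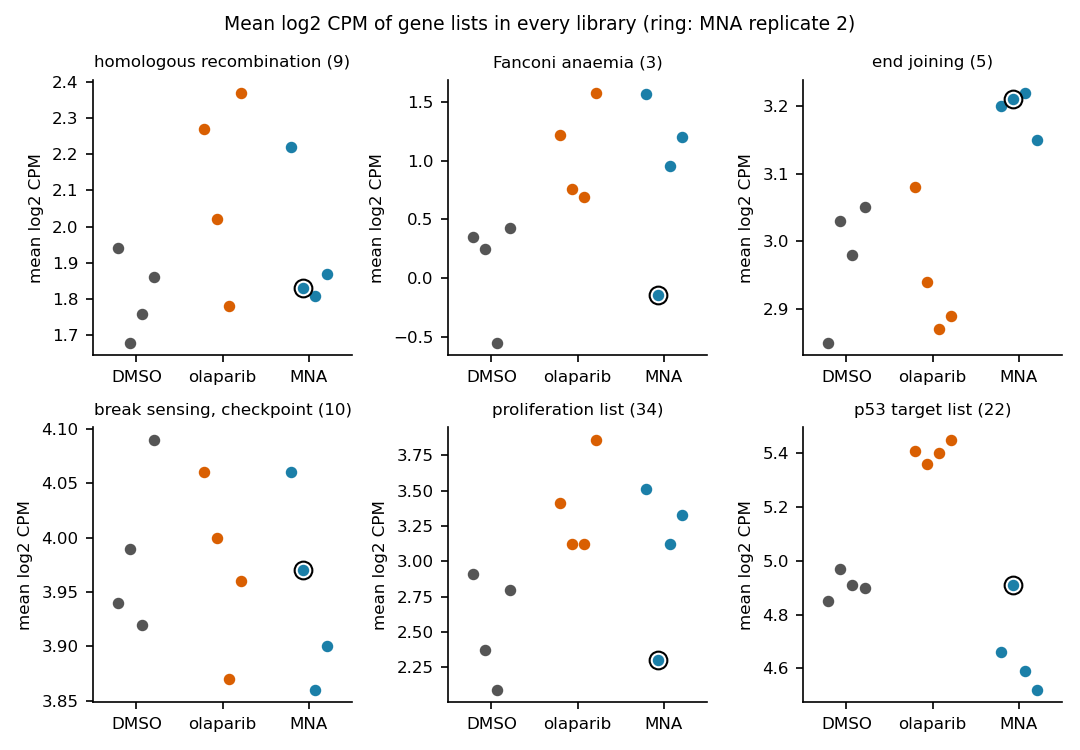
Each panel gives the mean log2 CPM of a gene list (vertical axis, number of genes in the panel title) in the 12 libraries, 4 per group, with a ring around MNA replicate 2. The Fanconi and proliferation lists stand above every DMSO library with olaparib and in MNA replicates 1, 3 and 4, the end joining members stand above every DMSO and olaparib library in all 4 MNA libraries (3.15 to 3.22), and the p53 target list is above all other libraries with olaparib.

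Base excision and single-strand break repair gave changes in both directions. Polb (ENSMUSG00000031536, chromosome 8, 22628126 to 22653435), the polymerase that fills the gap left by an excised base, had 5.02, 6.92, 5.83 and 5.81 CPM with DMSO, 8.83, 7.66, 7.36 and 9.65 with olaparib, and 7.57, 6.84, 8.26 and 10.2 with MNA. It was up-regulated by both treatments, without overlap for olaparib and with MNA replicate 2 inside the DMSO range. The log2 fold change was 0.51 ± 0.15 with olaparib (adjusted p = 0.0269) and 0.48 ± 0.15 with MNA (adjusted p = 0.0353). Neither call held with 1 of DMSO replicates 1, 3 and 4 removed, nor the first with 1 of olaparib replicates 1 and 4 removed (adjusted p of 0.0625 to 0.0831), nor the second with 1 of MNA replicates 1, 3 and 4 removed (0.0654 to 0.112). Olaparib and MNA differed by 0.03 ± 0.15 (adjusted p = 0.915).

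Xrcc1 (ENSMUSG00000051768, chromosome 7, 24546289 to 24573440), the scaffold that PARP1 recruits to nicks, had 23.3, 26.1, 27.3 and 25.3 CPM with DMSO, 26.7, 26.5, 26.6 and 25.8 with olaparib, and 19.5, 25.1, 21.3 and 19.7 with MNA. Olaparib lay inside the DMSO range, and MNA replicates 1, 3 and 4 lay below it. With olaparib the log2 value was 0.05 ± 0.08 (adjusted p = 0.698), with MNA it was −0.25 ± 0.09 (adjusted p = 0.0435), and olaparib exceeded MNA by 0.30 ± 0.09 (adjusted p = 0.0251). The MNA call was lost when any library other than DMSO replicate 1 or MNA replicate 2 was left out (adjusted p of 0.0571 to 0.126), and that between the treatments without olaparib replicate 1, 2 or 3 or MNA replicate 1, 3 or 4 (0.0582 to 0.0751). With MNA replicate 2 removed they were −0.34 ± 0.07 (adjusted p = 8.58e-04) and 0.39 ± 0.07 (adjusted p = 5.11e-04).

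Lig3 (ENSMUSG00000020697, chromosome 11, 82781108 to 82804274), the ligase that XRCC1 carries, had 18.4, 21.3, 22.1 and 19.6 CPM with DMSO, 16.1, 16.1, 15 and 13.9 with olaparib, and 15.2, 23.1, 17.0 and 17.5 with MNA. Olaparib libraries were below DMSO, with a log2 fold change of −0.41 ± 0.12 (adjusted p = 0.0252) that missed the threshold with 1 of DMSO replicates 2 and 3 or of olaparib replicates 3 and 4 removed (0.0608 to 0.0718). MNA replicate 2 was above every DMSO library, and the MNA value was −0.16 ± 0.12 (adjusted p = 0.306), or −0.30 ± 0.09 without it (adjusted p = 0.0109). A share of 25.1% of the exon bases of Lig3 lies on exons of Rffl on the opposite strand, so its reads are uncertain.

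Lig1 (ENSMUSG00000056394, chromosome 7, 13277283 to 13311433), the ligase of DNA replication and long-patch repair, had 11.9, 9.60, 11.0 and 12 CPM with DMSO, 14.3, 12.6, 13.8 and 19.1 with olaparib, and 17.5, 9.96, 12.2 and 14.2 with MNA. Every olaparib library was above DMSO, and the log2 value of 0.43 ± 0.17 did not pass the test (adjusted p = 0.0829), but did with same-numbered libraries blocked (0.0306) or without MNA replicate 2 (0.0234). With MNA it was 0.28 ± 0.17 (adjusted p = 0.226, and 0.0380 without replicate 2). Aptx (ENSMUSG00000028411, chromosome 4, 40682382 to 40703194), which removes AMP from failed ligations, had 20.5, 22.1, 20.8 and 19.5 CPM with DMSO, 19.6, 16.4, 18.5 and 18.0 with olaparib, and 15.9, 21.5, 16.6 and 16.2 with MNA. MNA replicates 1, 3 and 4 were below all DMSO libraries and replicate 2 within them. Its log2 values were −0.19 ± 0.10 (adjusted p = 0.171) and −0.24 ± 0.10 (adjusted p = 0.0876), and without MNA replicate 2 both passed (0.0406 and 0.00166).

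The glycosylases and the AP endonuclease, which start base excision, were not called in any of the 3 comparisons. With olaparib the log2 values were −0.06 ± 0.15 for Ogg1, which removes 8-oxoguanine, −0.18 ± 0.29 for Mutyh, which removes adenine opposite it, 0.13 ± 0.10 for Neil1 and 0.18 ± 0.15 for Ung, which removes uracil. With MNA they were −0.03 ± 0.15, −0.24 ± 0.29, 0.16 ± 0.10 and −0.16 ± 0.15. Ung exceeded MNA with olaparib by 0.34 ± 0.15 (adjusted p = 0.125), and by 0.43 ± 0.15 without MNA replicate 2 (adjusted p = 0.0344). Apex1 had −0.11 ± 0.19 with each treatment, and 61.7% of its exon bases lie on exons of Pip4p1 on the opposite strand.

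None of the 5 end joining genes was called with olaparib (lowest adjusted p = 0.171 from edgeR, 0 at an unadjusted p under 0.05 and 0 by DESeq2), while Xrcc4 and Xrcc6 were up-regulated with MNA. Xrcc4 (ENSMUSG00000021615, chromosome 13, 89774027 to 90089608), the scaffold of the end joining ligase, had 7.03, 7.95, 8.51 and 7.49 CPM with DMSO, 9.18, 7.82, 9.13 and 9.02 with olaparib, and 10.9, 10.1, 10.7 and 11.4 with MNA. All 4 MNA libraries, replicate 2 included, lay above every DMSO and olaparib library. With MNA the log2 fold change was 0.48 ± 0.09 (adjusted p = 0.0142), which held with any 1 library left out and was lost in a fit of the MNA and DMSO libraries alone (0.0640), where edgeR called 0 of all 12379 tested genes (4728 at an unadjusted p under 0.05, and 2434 higher and 2015 lower by DESeq2 with all 12 libraries). With olaparib it was 0.18 ± 0.10 (adjusted p = 0.171). The value of olaparib against MNA, −0.30 ± 0.09 (adjusted p = 0.0428), was lost without DMSO replicate 2 or 4, any olaparib library, or MNA replicate 1, 3 or 4 (0.0565 to 0.121).

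Xrcc6 (ENSMUSG00000022471, chromosome 15, 81987835 to 82040085), which encodes Ku70, the subunit of the Ku ring that first binds an end, had 9.14, 9.84, 9.92 and 12.1 CPM with DMSO, 10.5, 9.74, 10.1 and 9.37 with olaparib, and 13.8, 13.5, 13.2 and 12.5 with MNA. Again all 4 MNA libraries lay above the 8 others. Xrcc6 rose by a log2 fold change of 0.37 ± 0.10 with MNA (adjusted p = 0.0217), and this missed the threshold with 1 of DMSO replicates 2 and 3 or of MNA replicates 1, 3 and 4 removed (0.0542 to 0.0606). With olaparib it was −0.05 ± 0.10, and olaparib lay below MNA by −0.42 ± 0.10 (adjusted p = 0.0103), which held in each of the 21 alternatives. Xrcc5, which encodes the other Ku subunit, was counted at 26 to 52 reads per library and was not called, at 0.19 ± 0.21 with MNA (adjusted p = 0.504), an error that covers the value of Xrcc6, and a level of 1.48 ± 0.203 CPM with DMSO and 1.69 ± 0.21 with MNA (SD, n = 4). Lig4, the ligase that XRCC4 binds, and Prkdc, the kinase that Ku recruits, had 0.08 ± 0.09 and −0.03 ± 0.08 with MNA and −0.04 ± 0.09 and −0.16 ± 0.09 with olaparib.

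Mismatch and nucleotide excision repair held the largest MNA call. Msh6 (ENSMUSG00000005370, chromosome 17, 87975062 to 87990892), which takes part in recognizing mispaired bases, had 8.44, 10.4, 9.42 and 10.7 CPM with DMSO, 11.7, 11.4, 11.4 and 13.0 with olaparib, and 20.4, 10.2, 21.3 and 24.2 with MNA. MNA replicates 1, 3 and 4 lay above the 8 DMSO and olaparib libraries, and MNA replicate 2 was within the DMSO range. The log2 fold change with MNA was 0.96 ± 0.21 (adjusted p = 0.0147), or 1.17 ± 0.10 without replicate 2 (adjusted p = 4.02e-07), and it was lost without MNA replicate 3 (0.0514) or 4 (0.0510). Olaparib libraries were also above all DMSO libraries, at 0.28 ± 0.21 (adjusted p = 0.327, and 0.0285 without MNA replicate 2). Olaparib lay below MNA by −0.68 ± 0.21 (adjusted p = 0.0352), which was lost without any 1 olaparib library or MNA replicate 1, 3 or 4 (0.0584 to 0.102). Msh6 shares 10.8% of its 31-base words with other genes, of which Gm11855 shares the most, so part of its reads is uncertain.

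Xpc (ENSMUSG00000030094, chromosome 6, 91489305 to 91515888), the sensor of helix distortion in nucleotide excision repair, had 17.2, 14.3, 16.0 and 15.1 CPM with DMSO, 17.1, 17.9, 20.1 and 17.7 with olaparib, and 24.6, 15.3, 21 and 19.7 with MNA. With MNA it was up-regulated by 0.36 ± 0.12 (adjusted p = 0.0460), a call lost when any 1 library other than MNA replicate 2 was left out (0.0537 to 0.133). MNA replicates 1, 3 and 4 lay above all DMSO libraries and replicate 2 within them, and without replicate 2 the value was 0.47 ± 0.09 (adjusted p = 7.7e-04). With olaparib it was 0.22 ± 0.12 (adjusted p = 0.207). Olaparib against MNA gave −0.15 ± 0.12 (adjusted p = 0.432), and −0.26 ± 0.09 without MNA replicate 2 (adjusted p = 0.0406). Ercc1 (ENSMUSG00000003549, chromosome 7, 19344778 to 19356524), a subunit of the nuclease that cuts beside the lesion, had 17.9, 18.5, 18.2 and 18.3 CPM with DMSO, 15.5, 15.6, 14.0 and 15.9 with olaparib, and 12.9, 19.5, 14.7 and 16.1 with MNA. Olaparib and MNA replicates 1, 3 and 4 lay below the narrow DMSO range and MNA replicate 2 above it. Its log2 values were −0.25 ± 0.11 (adjusted p = 0.0976) and −0.20 ± 0.11 (adjusted p = 0.163), and both passed without MNA replicate 2 (0.0162 and 0.00544). Ddb2, which binds ultraviolet lesions and is a known p53 target in human cells, had 0.10 ± 0.26 and −0.02 ± 0.27, with 23.8% of its exon bases on exons of Acp2 on the opposite strand.

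The 16 members without library values above lay between −0.33 and 0.21 on the log2 scale with olaparib, between −0.31 and 0.36 with MNA, and between −0.29 and 0.34 for olaparib against MNA, with adjusted p of at least 0.182, 0.212 and 0.113. For Rad54l, Fanci, Trp53bp1, Ogg1 and Fanca, 15.4%, 15.95%, 15%, 10.6% and 10.5% of exon bases lie on exons of an opposite-strand gene. The kit kept strand, but which strand the counts use is not given in the sources used here.

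Other genes of these pathways, 87 by a written list of which 86 were tested, were called at shares near or below those of all tested genes. With olaparib 8 were up-regulated and 11 down-regulated (9.30% and 12.8%, beside 14.3% and 12.8% of all tested genes). With MNA these were 9 and 7 (10.5% and 8.14%, beside 16.3% and 12.3%), and between the treatments 4 and 9 (4.65% and 10.5%, beside 10.9% and 10.9%). Leaving out MNA replicate 2 gave 13 and 18 with olaparib (15.1% and 20.9%, beside 22.5% and 21.2%), 24 and 17 with MNA (27.9% and 19.8%, beside 27.2% and 26.9%), and 15 and 15 between them (17.4% and 17.4%, beside 21.5% and 20.7%). In homologous recombination, olaparib gave 2 up and 2 down of 19. The resection nuclease Dna2 was at 0.67 ± 0.16 (adjusted p = 0.0113). Rbbp8, which also acts in resection, was at −0.41 ± 0.08 (adjusted p = 0.00476), and the nuclease subunit Mus81 at −0.33 ± 0.10 (adjusted p = 0.0350). MNA gave 1 of 19, the exonuclease Exo1, at 1.29 ± 0.44 (adjusted p = 0.0460).

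Of 16 break sensing genes, olaparib raised Clspn, the adaptor of CHK1 (1.38 ± 0.39, adjusted p = 0.0231), and lowered Rad9a (−0.25 ± 0.07, adjusted p = 0.0301) and Paxip1 (−0.35 ± 0.11, adjusted p = 0.0364). MNA raised the histone gene H2afx (0.76 ± 0.20, adjusted p = 0.0213) and the phosphatase Cdc25a (0.35 ± 0.09, adjusted p = 0.0213) and lowered the kinase Wee1 (−0.68 ± 0.22, adjusted p = 0.0381). In base excision repair 14 of 15 were tested. Olaparib gave 3 up and 4 down, with the glycosylase Mbd4 at 1.07 ± 0.19 (adjusted p = 0.00229), Tdp1, which clears trapped topoisomerase 1, at −0.48 ± 0.10 (adjusted p = 0.00607) and the glycosylase Tdg at −0.50 ± 0.12 (adjusted p = 0.0124). MNA gave 2 up and 1 down, namely the sliding clamp Pcna (0.60 ± 0.14, adjusted p = 0.0160), Mbd4 (0.54 ± 0.19, adjusted p = 0.0471) and Tdg (−0.40 ± 0.12, adjusted p = 0.0341).

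Among 6 mismatch repair genes other than Msh6, MNA raised 3 and none was called with olaparib. With MNA Mlh3 rose by 0.57 ± 0.12 (adjusted p = 0.0143) and Msh3 by 0.73 ± 0.20 (adjusted p = 0.0244). With olaparib Mlh3 had the smallest p of the 6, at 0.25 ± 0.12 (adjusted p = 0.145 from edgeR, and 0.0197 without MNA replicate 2), and 0 of the 6 passed at an unadjusted p under 0.05 or by DESeq2. Msh3 was also lower with olaparib than with MNA. Of 5 end joining genes, Paxx fell with MNA (−0.62 ± 0.19, adjusted p = 0.0343), and none was called with olaparib by edgeR or DESeq2 (lowest adjusted p = 0.234 from edgeR). Of 10 Fanconi genes, olaparib lowered the translocase Fancm (−0.30 ± 0.09, adjusted p = 0.0305), and MNA raised Fance (0.34 ± 0.12, adjusted p = 0.0493) and lowered the deubiquitinase Usp1 (−0.39 ± 0.12, adjusted p = 0.0364).

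In nucleotide excision repair, Gtf2h2, a subunit of the helicase complex TFIIH, moved in opposite directions. It stood at 12.9 ± 0.772 CPM with DMSO, 17.2 ± 0.838 with olaparib and 9.76 ± 1.31 with MNA (SD, n = 4), with log2 fold changes of 0.41 ± 0.10 (adjusted p = 0.0104) and −0.40 ± 0.10 (adjusted p = 0.0192), and was called between the treatments. Of the 16 genes, olaparib also raised Ercc5 (0.25 ± 0.07, adjusted p = 0.0238), and MNA lowered Gtf2h1 (−0.63 ± 0.17, adjusted p = 0.0222) and Rad23b (−0.70 ± 0.19, adjusted p = 0.0236). Without MNA replicate 2 the values of Gtf2h1 and Rad23b with MNA were −0.9 (adjusted p = 4.81e-08) and −1.02 (adjusted p = 1.68e-08).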

How the data were processed

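Poly(A) RNA of 12 BMDM cultures was sequenced with a stranded kit. The deposited counts are whole numbers of reads per Ensembl gene, 1 column for each library, which the authors made with STAR 2.5.2b (named in the submitters' processing notes) on GRCm38.p5 and did not normalize. The strand setting behind these counts is not given in the sources used here. The p-values measure the spread between cultures of marrow from 4 donor mice. Whether each culture came from a single mouse or from pooled marrow is not given, so this spread may not include that between mice.

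The 12 libraries were fitted together in edgeR 4.0.16 (R 4.3.3) with TMM factors, filterByExpr (minimum count 10, minimum total 15) and the quasi-likelihood test, and p-values were adjusted by Benjamini-Hochberg over 12849 genes, with calls at 0.05. CPM use the TMM-scaled total, and means of log2 CPM a prior count of 2. Overlaps with other genes and words of 31 bases shared with them were taken from the annotation. The fit was tested on simulated data. Summaries and figures used Python 3.11.15.

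The members and lists (other repair genes, proliferation, p53 targets, cell type markers) were chosen with earlier results of these data known. Library values are given for members called in any comparison, or against DMSO without MNA replicate 2, or among the top 2 of a pathway otherwise without one, and 3 genes by p are named for each other list and treatment, except that some of these genes are not reported here. Promoters follow the order of p with olaparib.

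For each library number, the departures from the mean of its group in olaparib and in DMSO correlated across genes at 0.172 to 0.408 (4 pairs). Differently numbered libraries were not compared, so these values cannot show whether numbers pair the libraries. The main fit used no block, and a fit with the replicate block is given where it changed a call. The alternatives were other normalizations, filters and thresholds, DESeq2 1.42.0, 2 groups at a time, blocking, and leaving out each library.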

Additional observations from a re-analysis of the deposited data

Results flagged for a closer look

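In 123 groups of 4 libraries (41 members in 3 groups), 3 held a library far from the other 3, with a gap beyond Dixon's 95% limit, and about 1 in 20 such groups does so by chance. Aptx was at 21.5 CPM in MNA replicate 2 and at 15.9 to 16.6 CPM in the other MNA libraries. Xrcc4 was at 7.82 CPM in olaparib replicate 2, compared with 9.02 to 9.18 CPM in the others. Lig4 was at 9.23 CPM in DMSO replicate 1, compared with 10.8 to 10.9 CPM.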

How the results depend on the processing

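No member called in a comparison changed its direction in any of the alternatives tried, and 8 of the 24 calls passed in each of the 21. The shares of all tested genes moved with the member counts, so the counts below are given beside them. Against the 5 members up-regulated and 4 down-regulated with olaparib, the replicate block gave 8 up-regulated (15.4% of all genes), the block without MNA replicate 2 gave 12 and 7 (24.2% and 22.7%), the fit of 2 groups alone gave 11 up-regulated (22.9%), and an adjusted p under 0.01 left 1 and 1 (6.63% and 4.12%). Leaving out 1 library gave 2 to 11 up-regulated (9.49% to 22.5% of all genes) and 3 to 8 down-regulated (7.10% to 21.2%). Against the 5 and 3 members with MNA, the fit without a filter gave 3 up-regulated (8.34%), and the block without MNA replicate 2 gave 11 and 9 (27.8% and 27.2%). The fit of MNA and DMSO alone in edgeR gave 0 and 0 members (7 and 4 at an unadjusted p under 0.05, and 6 and 4 by DESeq2), and 0 of all 12379 genes. An adjusted p under 0.01 likewise gave 0 and 0 members, and 0 of all 12849 genes. Leaving out 1 library gave 1 to 12 up-regulated (3.13% to 27.2%) and 0 to 8 down-regulated (0.421% to 26.9%), the highest without MNA replicate 2 in both. Against the 3 members higher and 4 lower with olaparib than with MNA, leaving out 1 library gave 2 to 4 (7.56% to 21.5%) and 1 to 6 (7.03% to 20.7%), and for the lower ones no filter gave 2 (5.02%), 2 groups alone gave 1 (6.73%) and an adjusted p under 0.01 gave 0 (3.64%). The causes of these shifts were not tested, except that fits with fewer libraries or groups have fewer samples. Same-numbered MNA and DMSO libraries correlated at −0.00938 to 0.277 and olaparib and MNA libraries at 0.0696 to 0.392. Here too, differently numbered libraries were not compared, so whether numbers pair these libraries was not tested. In these comparisons the replicate block in edgeR brought in Bard1 (adjusted p = 0.0403) and Atm (0.0391) with MNA and lost Xrcc4 between the treatments (0.0603). Depth limits the members with the fewest reads, Fanci (6 to 59 per library), Chek1 (8 to 44), Rad51c (11 to 45) and Mutyh (15 to 26).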
